A study of Mus musculus with 5 samples.

Results

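Adventitial fibroblasts, the Dcn-positive cells that express Pi16, Dpt or Clec3b, made up 2819 of the 17771 cells deposited from mouse pancreatic tumours. A cell was counted as one when it held at least 10 Dcn unique molecular identifiers (UMIs, counts of single captured RNA molecules) per 10000 UMIs. It also had to hold at least 10 per 10000 of Pi16, Dpt and Clec3b in sum, less than 1 per 10000 of the mesothelial genes Upk3b, Lrrn4 and Upk1b in sum, less than 3 per 10000 of the cycling genes Mki67, Top2a and Cenpf in sum, and less than 2 per 10000 of Epcam, an epithelial adhesion gene. The same rule without a sufficient sum of Pi16, Dpt and Clec3b gave 2852 other Dcn-positive cells, the population used for comparison. The levels of these rule genes, and all differences between the adventitial and the other Dcn-positive cells, come from the values that chose the cells and are given as description, with no test.

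The cells came from advanced tumours of KPPC and KPPCN mice aged 7 to 8 weeks. They were dissociated, depleted of dead cells and of CD45-positive blood cells, and profiled by droplet sequencing of transcript 3′ ends with about 6000 cells loaded per library. The labels give the short genotype names without alleles. KPPC is the usual name for mice that lose both Trp53 alleles, among other changes, through a Cre recombinase active in the pancreatic epithelial lineage, and the added N stands for a floxed Nsdhl, a gene of cholesterol synthesis. Fibroblasts of both genotypes are taken here to be outside that lineage, with the alleles acting in the neighbouring tumour epithelium. Recombination in the cells studied was not tested. The analysis used 3 KPPC libraries, which carry the codes C3, D3 and H2, and 2 KPPCN libraries, numbered 1 and 2. Nothing in the labels names the mouse behind each library, so p-values measure the spread between these libraries. Values of single libraries are given in the order KPPC C3, D3 and H2, then KPPCN 1 and 2.

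Adventitial fibroblasts sit in the outer coat of vessels and ducts, where they lie among collagen and elastic fibres. In mouse tissues they are commonly recognised by Pi16, a secreted peptidase inhibitor, Dpt (dermatopontin), a small matrix protein that binds decorin, and Clec3b (tetranectin), a secreted plasminogen-binding lectin. In pancreatic cancer, fibroblasts are commonly described as myofibroblastic, with contractile and matrix genes, as inflammatory, with cytokines and chemokines, or as antigen-presenting, with MHC class II genes.

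One library stood apart. The adventitial fibroblasts of KPPCN 1 had a median of 3666.5 UMIs, whereas those of the other 4 libraries had medians of 12458.5 to 17434. T and B cell markers summed to 1244 CPM (counts per 1000000 UMIs) in the adventitial fibroblasts of KPPCN 1 and to 4.59 CPM in those of KPPCN 2. KPPC cannot be set beside these sums, since 8, 11 and 11 of the 12 markers were listed at 0 in C3, D3 and H2 or not among the KPPC genes used here. Igkc, an antibody light chain, was measured in KPPC C3 and stood at 243 CPM there, against 920 and 1.41 CPM in KPPCN. Erythroid genes summed to 2919 CPM in KPPCN 1, 129 CPM in KPPCN 2 and 181 CPM in KPPC C3, while all 6 were listed at 0 in KPPC D3 and 4 of them in KPPC H2. Ptprc, the gene of CD45, stood at 29.1 CPM in the adventitial fibroblasts of KPPCN 1 against 192 CPM in all other cells of that library. Between libraries, 27 cell barcodes were shared, and 1 of them was shared between 2 adventitial fibroblasts. The 2 genotypes were deposited as separate tables, so that table and genotype cannot be told apart. Of the 12579 genes shared by the tables, 1170 were at 0 in every cell of at least 1 library (275, 418 and 1036 in KPPC C3, D3 and H2, 4 and 7 in KPPCN 1 and 2), and comparisons of genes used the 11409 with a UMI in every library. Summed over the adventitial fibroblasts, the libraries held 19025467 UMIs in KPPC C3, 2172040 in KPPC D3, 4451990 in KPPC H2, 5309714 in KPPCN 1 and 2849820 in KPPCN 2.

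The genes that chose the cells were high in each library. Pi16 stood at 878, 792, 1356, 893 and 801 CPM in the adventitial fibroblasts and at 23.8 to 121 CPM in the other Dcn-positive cells. Dpt stood at 1413, 1139, 1014, 1280 and 1396 CPM, and Clec3b at 555, 496, 283, 910 and 358 CPM. Dcn, the proteoglycan decorin, which both populations had to express, was also higher in the adventitial fibroblasts, at 4901 to 10458 CPM against 2971 to 5390 CPM. Pi16 lies on the plus strand of chromosome 17 at 29317680 to 29330593, Dpt on the plus strand of chromosome 1 at 164796644 to 164824266, and Clec3b on the plus strand of chromosome 9 at 123150946 to 123157432 (build GRCm38).

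Most adventitial fibroblasts expressed more than 1 of these 3 genes. All 3 were seen in 56.7% of them, 2 in 32.5% and 1 in 10.8%. Detection depends on depth, so each cell was also thinned at random to 1000 UMIs. Dpt was then seen in the largest share in KPPC C3, D3, KPPCN 1 and KPPCN 2, at 66.9%, 58.6%, 68.5% and 78.1%, whereas in KPPC H2 Pi16 led with 60.8% against 53.5% for Dpt. Clec3b was seen in 37.8%, 36.3%, 20.4%, 58.5% and 31.0% of the thinned cells. KPPC H2 thus combined the highest detection of Pi16 with the lowest of Clec3b. Applied to the thinned cells, the rule chose again 86.5% of the adventitial fibroblasts deep enough to thin.

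Col14a1, the fifth marker, was not in the rule. It encodes a collagen that binds the surface of fibrils and lies on chromosome 15 at 55307750 to 55520803 (GRCm38, plus strand). Col14a1 stood at 908, 728, 660, 1035 and 761 CPM in the adventitial fibroblasts and at 138, 29.9, 108, 190 and 115 CPM in the other Dcn-positive cells. The lowest adventitial value was above the highest of the others. After thinning to 1000 UMIs, a Col14a1 UMI was seen in 53.0%, 41.4%, 44.1%, 60.4% and 49.7% of adventitial fibroblasts. It was seen in 10.3%, 3.5%, 10.1%, 18.5% and 7.95% of the other Dcn-positive cells, whose median depth before thinning was 3508 to 20476 UMIs. Epcam-positive cells, which should lack the gene, gave 1.81%, 0.132%, 0, 3.45% and 0%, from median depths of 5254 to 19809 UMIs. The 2 values of 0 came from 462 and 26 cells.

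Pooled over the libraries, Col14a1 formed a gradient across the threshold. Among cells that met the other terms, pooled Col14a1 was 0.187 UMIs per 10000 in the 1368 cells with no UMI of Pi16, Dpt or Clec3b and 0.858 in the 1051 cells with a sum under 6 per 10000. Just outside the threshold, between 6 and 10 per 10000, 433 cells had 3.59 Col14a1 UMIs per 10000, and just inside it, between 10 and 14, 432 cells had 4.76. The 1285 cells between 14 and 30 had 7.81, and the 1102 cells from 30 upward had 12.4. Col14a1 was therefore graded with the sum, without a step at the threshold, and the adventitial fibroblasts are a range of cells chosen by a threshold. The exclusion terms removed 327 of the 3146 cells that met both expression terms. Of these, 219 exceeded the cycling term, 155 of them in KPPCN 1, 78 the mesothelial term and 37 the Epcam term, some more than one.

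**Figure D1:**
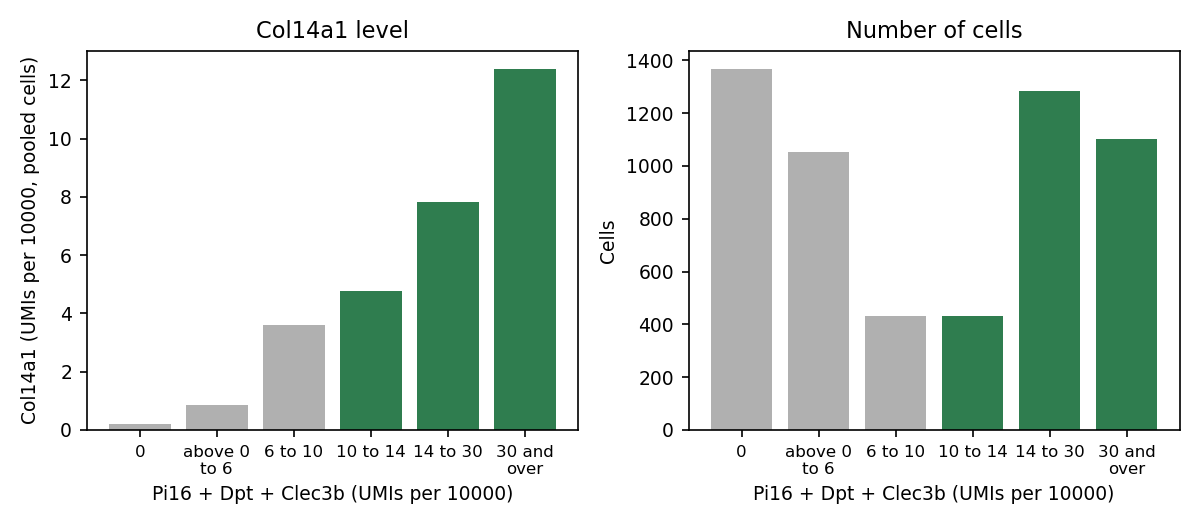
Pooled Col14a1 level (UMIs per 10000) and number of cells in bins of the summed Pi16, Dpt and Clec3b level (UMIs per 10000 of a cell), over cells of all libraries that met the other terms of the rule. Green marks the side of the adventitial fibroblasts. Col14a1 was graded across the bins, from 0.187 with no UMI of the 3 genes to 12.4 in the highest bin.

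The share of adventitial fibroblasts varied several-fold within KPPC. They were 1078 of 3777 cells in KPPC C3 (28.5%, 95% Clopper-Pearson interval 27.1 to 30.0%), 164 of 3282 in KPPC D3 (5.0%, 4.28 to 5.80%) and 334 of 2515 in KPPC H2 (13.3%, 12 to 14.7%). In KPPCN they were 1084 of 6111 cells in library 1 (17.7%, 16.8 to 18.7%) and 159 of 2086 in library 2 (7.62%, 6.52 to 8.85%). Both KPPCN values lay within the KPPC range. The intervals cover counting error only. The mean was 15.6% ± 11.9 (SD, n = 3) in KPPC and 12.7% ± 7.15 (SD, n = 2) in KPPCN, a difference of -2.93 percentage points (two-sided exact permutation test, p = 0.9). With 3 libraries against 2, this test cannot give a p below 0.1. The 2 tables held unlike sets of cells. Under 500 genes were seen in 0 cells of each KPPC library and in 733 and 68 cells of KPPCN 1 and 2. Among cells with at least 500 genes, the KPPCN shares were 19.1% and 7.78%, and the difference was -2.17 percentage points.

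A second share took only the Dcn-positive cells that passed the exclusion terms, 1628, 1013, 829, 1855 and 346 in library order. Of these, adventitial fibroblasts were 66.2%, 16.2% and 40.3% in KPPC and 58.4% and 46.0% in KPPCN. KPPC D3 was the lowest of all and KPPC C3 the highest, and the KPPCN libraries lay between. The means were 40.9% ± 25 (SD, n = 3) and 52.2% ± 8.83 (SD, n = 2), 11.3 percentage points higher in KPPCN (exact permutation test, p = 0.7). Neither difference exceeded the spread between libraries. The direction of the first difference turned without KPPC C3 (3.54 points) or KPPCN 2 (2.13 points). It also turned when cells with a Ptprc UMI were left out (0.774 points). Ptprc is not among the KPPC genes used here, so its level in KPPC cells is unknown. That setting could therefore take cells from KPPCN only, with 3842 of 6111 left in KPPCN 1, and did not treat the genotypes alike. The direction of the second difference turned without KPPC D3 (-1.06 points).

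**Figure D2:**
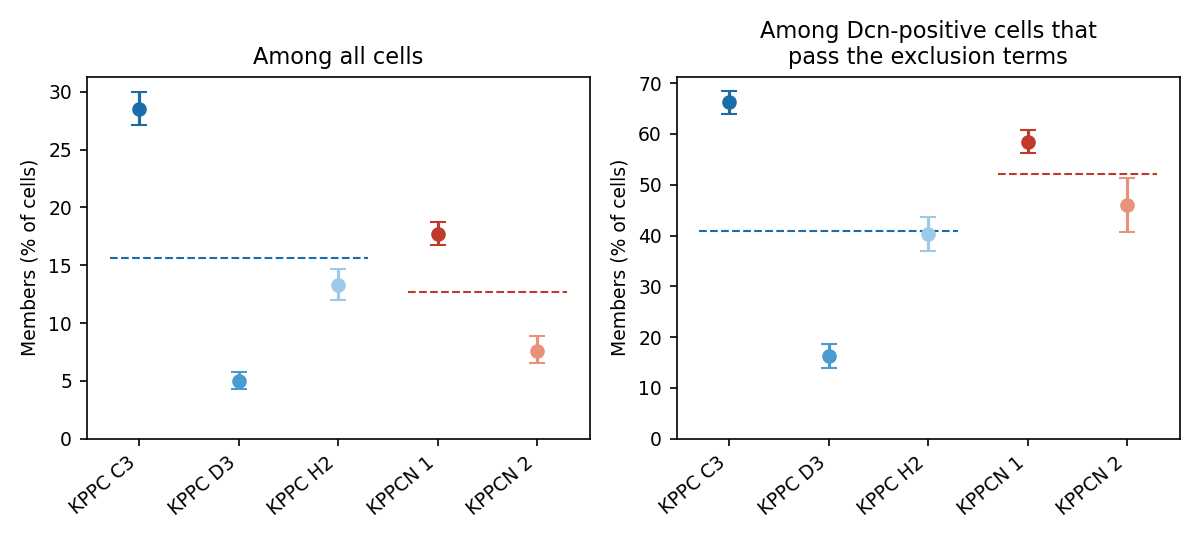
Adventitial fibroblasts as a percentage of all cells (left) and of Dcn-positive cells that pass the exclusion terms (right) in each library, KPPC and KPPCN. Points are libraries, bars are 95% Clopper-Pearson intervals that cover counting error only, and dashed lines are group means. KPPC spans 5.0 to 28.5% of all cells, and both KPPCN values, 17.7% and 7.62%, fall inside that span.

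The adventitial fibroblasts shared more than the genes of the rule. Of the 11409 genes compared with the other Dcn-positive cells, 65 (0.57%) were at least 2-fold higher in all 5 libraries and 46 (0.403%) at least 2-fold lower, as ratios of CPM plus 5. With no size limit, 2048 genes (18%) were higher in all 5 libraries and 2096 (18.4%) lower. The counts of listed genes that follow are to be read beside these shares. Of 19 further adventitial genes, 17 were higher in all 5 libraries and none was lower in all 5. The exceptions were Dpp4, a membrane dipeptidase of this cell type that was higher in 4 of 5, and Pdgfra, the PDGF receptor of most fibroblasts, which was higher in KPPCN 2 only, at 157 to 206 CPM against 158 to 241 CPM.

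Ranked by the lowest of the 5 ratios among genes at 50 CPM or more, the first gene outside the rule was a secreted regulator. Sfrp4, a secreted antagonist of Wnt ligands, stood at 653, 521, 173, 353 and 258 CPM in the adventitial fibroblasts and at 34.9, 6.23, 12.5, 47.3 and 12.3 CPM in the others. Its lowest adventitial value exceeded the highest of the others. Ackr3, a scavenging receptor for the chemokine Cxcl12, stood at 129, 97.5, 111, 147 and 206 CPM against 24.5, 15.4, 28.4, 39.5 and 49.1 CPM. Cxcl12 itself was also higher in all 5 libraries, at 606, 1536, 474, 225 and 357 CPM against 270, 243, 165, 122 and 230 CPM. In this case the ranges overlapped between libraries. Igf1, the insulin-like growth factor, was at 891 to 1268 CPM in the adventitial fibroblasts and at 260 to 558 CPM in the others, and 4 of 10 genes of the IGF axis were higher in all 5 libraries (Igf1, Igf2r, Igfbp4 and Igfbp6) with none lower.

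Elastic fibre genes were high. Of 20 genes of elastic fibres and their microfibrils, 14 were higher in all 5 libraries and none was lower in all 5. Eln, which encodes elastin, stood at 1343, 509, 2803, 1264 and 688 CPM against 468, 113, 180, 236 and 119 CPM. KPPC H2 was highest, and each library's adventitial fibroblasts exceeded the other cells of any library. Fbn1, the microfibril protein fibrillin, was at 1150 to 2435 CPM against 257 to 898 CPM, and Tnxb, a tenascin that organises collagen, at 346 to 1152 CPM against 34.7 to 252 CPM. Besides Dcn, 4 of 6 small leucine-rich proteoglycans, which bind collagen fibrils, were higher in all 5 libraries, among them Ogn at 188 to 406 CPM against 17.5 to 66.2 CPM. Of 17 collagens, 7 (41.2%) were higher and 1 (5.88%) lower in all 5 libraries. The membrane and surface genes Ly6c1 (393 to 955 against 9.21 to 156 CPM) and Entpd2, an enzyme that splits extracellular ATP (131 to 209 against 18.9 to 61.8 CPM), were likewise higher. Ly6c1 has a close copy, Ly6c2, between which reads could be divided.

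Of 18 matrix proteases and their inhibitors, 10 were higher and 2 lower in all 5 libraries. The serine protease Htra3 stood at 453 to 810 CPM against 65.0 to 194 CPM, and Adamts5, which cleaves proteoglycans, at 282 to 499 CPM against 80.6 to 153 CPM. The 2 lower genes were the metalloproteinase inhibitors Timp1 and Timp3. Timp1 stood at 1365, 1204, 2618, 2174 and 2276 CPM against 3528, 5638, 4479, 3373 and 6559 CPM.

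Immune genes were found on both sides. Of 18 genes of inflammatory fibroblasts, 6 (33.3%) were higher in all 5 libraries, namely Il6, Cxcl1, Cxcl12, Ccl7, Has1 and Tnfaip6. The 3 lower in all 5 (16.7%) were Saa3, Cxcl5 and Lif. Of all genes, 17.9% were higher and 18.4% lower. Il6, a cytokine, stood at 173, 164, 139, 121 and 239 CPM against 60.1, 73.8, 84.9, 44.5 and 112 CPM, and every adventitial value was above every other value. Saa3, an acute-phase protein, went the other way by a wide margin, at 449, 984, 655, 1402 and 665 CPM against 6478, 11818, 5980, 10285 and 3681 CPM. Of 13 complement genes, 6 (46.2%) were higher in all 5, including C4b at 1247 to 2200 CPM against 219 to 544 CPM, and 1 (7.69%) was lower.

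Genes of the other fibroblast states were mostly lower than in the other Dcn-positive cells. The rule has no term against dedifferentiated tumour cells. Their markers, 8 in all, summed to 1381 to 2663 CPM in the other Dcn-positive cells and to 453 to 573 CPM in the adventitial fibroblasts. Which cell types the comparison population holds was not tested. All 7 genes of antigen-presenting fibroblasts that could be compared were lower in all 5 libraries. Slpi, a protease inhibitor of epithelia and mesothelium, stood at 41.9, 76.7, 42.3, 92.1 and 32.2 CPM against 909, 1942, 1138, 1121 and 668 CPM. Cd74, the invariant chain of MHC class II, was at 13.2, 10.6, 6.53, 269 and 1.77 CPM against 176, 240, 213, 587 and 178 CPM. KPPCN 1 was the only library with over 100 adventitial Cd74 CPM, and the library with 1244 CPM of T and B cell markers. The part of those cells' RNA in the value was not tested. The rule itself caps 3 mesothelial genes in both populations.

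Of 18 myofibroblastic genes, 10 were lower in all 5 libraries, among them the contractile genes Acta2, Tagln, Myl9, Tpm1 and Tpm2, and 2 were higher, the matrix genes Postn and Spon2. Acta2, smooth muscle actin, stood at 213, 208, 427, 270 and 220 CPM against 682, 474, 789, 613 and 699 CPM. Its highest adventitial value, in KPPC H2, was below the lowest of the others. Among the 20 ligands, receptors and latency proteins of TGF-beta, a growth factor family that drives contractile fibroblasts, the ligand genes Tgfb1 and Inhba were lower in all 5 libraries. The receptors Tgfbr1, Tgfbr2, Tgfbr3, Acvrl1 and Eng and the latency proteins Ltbp1, Ltbp3 and Ltbp4 were higher. Of 22 SMAD response genes, 5 (22.7%) were higher and 3 (13.6%) lower, close to the 17.9% and 18.4% of all genes.

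Of 20 genes of glycolysis and the hypoxia response, 16 were lower in all 5 libraries. Egln3, an oxygen-sensing prolyl hydroxylase induced by hypoxia, stood at 4.02, 8.31, 4.50, 5.16 and 18.4 CPM against 58.8, 169, 99.8, 43.8 and 144 CPM. Eno1, a glycolytic enzyme, stood at 111, 106, 163, 197 and 233 CPM against 337, 612, 580, 458 and 548 CPM. The 2 genes higher in all 5 were Adm, a vasodilator peptide, and Hk2, a hexokinase. Of 25 genes of cholesterol synthesis and uptake, the pathway of Nsdhl, 13 were lower and 1 was higher in all 5 libraries. Sqle, the squalene epoxidase, stood at 3.44 to 9.45 CPM against 10.5 to 27.1 CPM. Leaving out 1 library at a time gave 66 to 88 genes at least 2-fold higher and 50 to 71 at least 2-fold lower in the remaining 4.

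**Figure D3:**
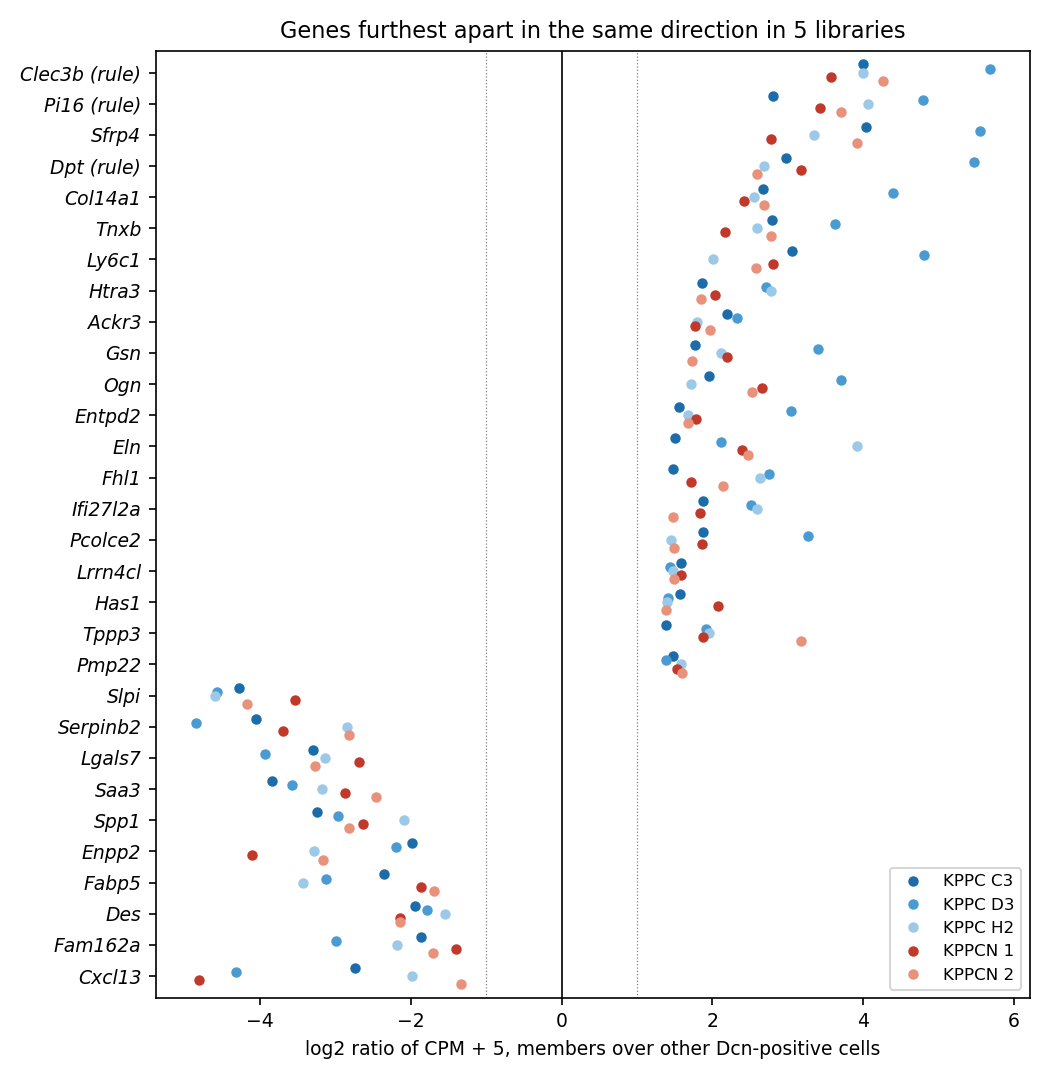
Log2 ratio of CPM plus 5 between adventitial fibroblasts and other Dcn-positive cells, for 20 genes higher and 10 genes lower in the adventitial fibroblasts, with 1 point per library. All points of the 20 genes lie above 0 and all points of the 10 genes below 0. Pi16, Dpt and Clec3b are in the rule that chose the cells.

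The adventitial fibroblasts differed among themselves along Pi16. Each was thinned to 1000 UMIs and sorted by whether a Pi16 UMI remained, which gave 476, 60, 200, 424 and 74 cells with and 594, 97, 129, 521 and 81 cells without. A cell without a Pi16 UMI at this depth may still express the gene, and as Pi16 is in the rule the split carries no test. Timp3 stood at 1282, 1372, 2096, 500 and 722 CPM in cells with Pi16 and at 491, 465, 653, 224 and 323 CPM in cells without. Cilp, a cartilage matrix protein, Mfap4, a microfibril protein, Lbp, an acute-phase protein that binds lipopolysaccharide, Cd34, a surface sialomucin, and Eln were also higher with Pi16 in all 5 libraries. Cells without Pi16 had more Cp (ceruloplasmin, a copper-binding ferroxidase), at 318, 279, 186, 203 and 236 CPM against 112, 100, 85.2, 103 and 54.5 CPM. Hp (haptoglobin), Steap4, a metal reductase, Sfrp2, a Wnt modulator, Ptx3, a soluble pattern receptor, and the growth factor Vegfd were also higher in cells without Pi16 in each library. Col14a1 differed little between them, with log2 ratios of -0.13 to 0.35.

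KPPCN was compared with KPPC within the adventitial fibroblasts to ask how the stroma differs with the tumour's genotype. Nsdhl itself stood at 7.61, 12.5, 7.43, 5.73 and 8.13 CPM, from 144, 27, 33, 30 and 23 UMIs, and the groups overlapped (log2 difference -0.22 ± 0.20 SE, limma adjusted p = 0.768). Epcam-positive cells, the lineage in which Cre acts, had 32.3, 24.4, 28.6, 15.2 and 32.7 Nsdhl CPM, the last 2 from 4 and 15 UMIs. Which part of the gene is lost is not given in the sources used here, and 3′ counts outside that part do not check the labels.

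Of 10587 genes tested, 13 (0.123%) were lower in KPPCN and 0 (0%) higher (limma on log2 of CPM plus 5, Benjamini-Hochberg adjusted p under 0.05). One of the 13 was Epcam, which the rule caps, so that its result is no test and the account that follows is of the other 12. At an unadjusted p under 0.05 there were 944. The median difference over all genes was 0.01 on the log2 scale. In 1475 genes (13.9%) the lower KPPCN value exceeded the highest KPPC value, and in 1227 (11.6%) the higher KPPCN value was below the lowest KPPC value. These are called genes above and below in both KPPCN libraries.

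Among the 12, 6 had a higher level in the KPPC adventitial fibroblasts than in the KPPC Epcam-positive cells. H19, an imprinted long noncoding RNA expressed from the maternal allele, stood at 236, 504, 247, 44.0 and 40.6 CPM. Every KPPC library was more than 5 times as high as either KPPCN library, and KPPC D3 was the highest (log2 difference -2.73 ± 0.29 SE, limma adjusted p = 0.0226). H19 lies on the minus strand of chromosome 7 at 142575529 to 142578143 (GRCm38), where the annotation gives a long intergenic noncoding RNA. Masp1, a serine protease of the lectin pathway of complement on chromosome 16 at 23449417 to 23520815 (minus strand), stood at 45.4, 72.1, 88.2, 8.41 and 10.3 CPM. Its lowest KPPC value was over 4 times either KPPCN value (-2.31 ± 0.26 SE, limma adjusted p = 0.0226). Cd59a, which blocks the membrane attack complex of complement, lies on chromosome 2 at 104095801 to 104115354 (plus strand) and stood at 56.6, 132, 101, 11.5 and 13.8 CPM. Both KPPCN values were under the lowest KPPC value (-2.43 ± 0.29 SE, limma adjusted p = 0.0258). Cd59a has a near copy, Cd59b, and reads could be divided between them. These were the 2 of 13 complement genes that passed the test, and both fell. Complement genes as a list did not move one way, with a median log2 difference of -0.09 against 0.01 over all genes.

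Epha4, a receptor for ephrins on chromosome 1 at 77367185 to 77515088 (minus strand), stood at 45.4, 91.0, 47.3, 8.41 and 8.48 CPM. The lowest KPPC value was over 5 times either KPPCN value (-2.20 ± 0.25 SE, limma adjusted p = 0.0226). Fgfr2, a fibroblast growth factor receptor, stood at 21.6, 20.3, 23.0, 5.16 and 2.12 CPM, the KPPCN values from 27 and 6 UMIs (-1.64 ± 0.20 SE, limma adjusted p = 0.0258). The KPPC libraries lay close together. Abi3bp, a secreted matrix protein on chromosome 16 at 56477878 to 56690135 (plus strand), had the highest CPM of the 12 in KPPCN, at 370, 503, 390, 157 and 156 CPM. It also had the smallest difference of the 6, and its groups did not overlap (-1.39 ± 0.19 SE, limma adjusted p = 0.0430).

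The other 6 genes had their higher level in the Epcam-positive cells. Dmbt1, a secreted mucosal glycoprotein, stood at 189, 131, 85.3, 14.3 and 14.8 CPM in the adventitial fibroblasts (-2.79 ± 0.28 SE, limma adjusted p = 0.0226), and Tff2, a trefoil peptide of mucus, at 70.2, 47.6, 36.7, 7.45 and 5.66 CPM (-2.28 ± 0.25 SE, limma adjusted p = 0.0226). The groups did not overlap. Gkn3, Ctse, Fxyd3 and Cldn4 differed by -2.43 to -1.52. In the KPPC adventitial fibroblasts, these 6 genes stood at 1.56% (Cldn4) to 5.62% (Dmbt1) of their mean level in the KPPC Epcam-positive cells. Epcam-positive cells, at 10 or more per 10000, were 11.9%, 23.5% and 18.5% of all cells in KPPC and 0.556% and 1.34% in KPPCN. The sum of 12 epithelial markers was 524, 711 and 577 CPM in the KPPC adventitial fibroblasts and 462 and 320 CPM in the KPPCN ones, with none of the markers at 0. The Epcam cap of 2 per 10000 also bears on cells with epithelial RNA, and it was uneven. At the median depth of the adventitial fibroblasts, 1 UMI was 2.73 per 10000 in KPPCN 1. It was 0.574 to 0.803 per 10000 in KPPC and 0.579 in KPPCN 2. The part of epithelial RNA and of this cap in these 6 differences was not tested. The sums over cells do not separate fewer cells with this RNA from less RNA per cell. Values of these genes in single cells were not compared.

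**Figure D4:**
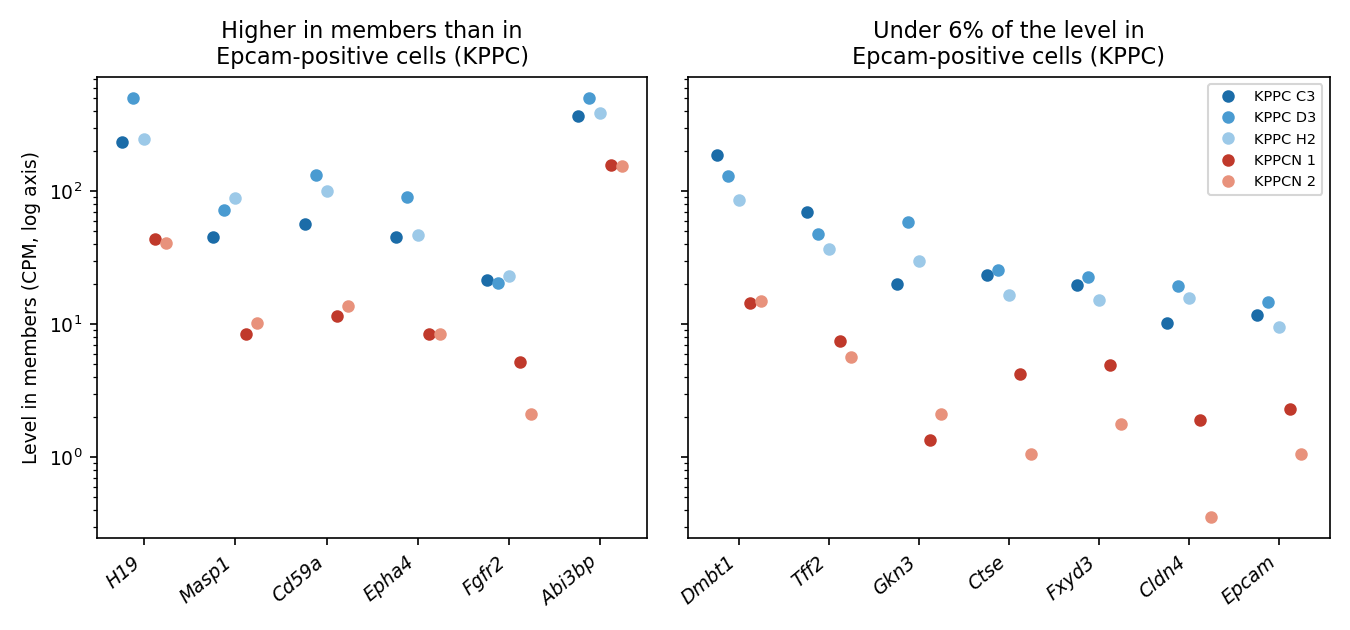
CPM (log axis) of the 13 genes that passed the test between KPPCN and KPPC in adventitial fibroblasts, 1 point per library, with the genes higher in KPPC adventitial fibroblasts than in KPPC Epcam-positive cells (left) apart from the other 7 (right). Epcam is shown for its level only, as it is in the rule. For H19, 3 KPPC libraries lie at 236 to 504 CPM and 2 KPPCN libraries at 44.0 and 40.6 CPM.

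The differences of the 12 genes stayed negative under each of the 13 or 14 alternative analyses that gave a value, but which genes passed depended on the libraries and settings. Including Epcam where it passed, 15 genes were lower without KPPC C3, 1 without KPPC D3 and 4 without KPPC H2, with 0 higher. The single direction did not hold without a KPPCN library: 3 genes were higher and 5 lower without KPPCN 1, of which only Ctse and Fgfr2 were among the 12, and 56 were higher and 60 lower without KPPCN 2. The count was 4 with the sum and Dcn thresholds at 20 per 10000. It was 1 (Cpxm2) among cells with no UMI of Ptprc, Pecam1, Epcam, Krt18, Cdkn2a or Igkc. Of these, Ptprc could remove KPPCN cells only. With genes at 0 in a library included, the count was 0 (lowest limma adjusted p = 0.110, 882 genes at an unadjusted p under 0.05). The KPPC values of 0 among the genes so added may be missing data. H19 passed in 11 of 14 alternatives, with adjusted p from 0.00205 to 0.110, and Masp1 in 9 of 14, from 0.00305 to 0.118.

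Below the threshold, several gene groups were divided between the KPPCN libraries. None of the genes in the groups that follow passed the limma test unless named above, and each count over both KPPCN libraries is set beside the 13.9% and 11.6% of all genes. Among 20 genes of hypoxia and glycolysis, 11 were above and 0 below in both KPPCN libraries, with a median log2 difference of 0.45, and 8 genes had an unadjusted p under 0.05. KPPCN 2 alone was above every KPPC library for 19 of the 20, against 29.5% of all genes. KPPCN 1 was above for 11 and below for 7, against 38.4% and 29.1% of all genes. Pfkl, a phosphofructokinase, stood at 27.9, 21.7, 32.0, 53.9 and 73.2 CPM (1.05 ± 0.22 SE, limma adjusted p = 0.218). Tpi1, another enzyme of glycolysis, stood at 221, 224, 223, 308 and 416 CPM (0.66 ± 0.21 SE, limma adjusted p = 0.435). For both genes KPPCN 2 was the highest and the KPPC libraries lay close together.

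Among 19 adventitial genes outside the rule, 5 were above and 0 below in both KPPCN libraries, with a median of 0.36. Dpp4 stood at 22.7, 15.2, 20.5, 35.4 and 61.1 CPM (1.03 ± 0.25 SE, limma adjusted p = 0.289), and Anxa3, an annexin, at 138, 122, 151, 268 and 222 CPM (0.81 ± 0.20 SE, limma adjusted p = 0.289). The groups did not overlap for either gene, nor for Cd55, Cadm3 or Ly6a. Col14a1 overlapped (0.22 ± 0.23 SE, limma adjusted p = 0.804). Lysyl oxidases cross-link collagen and elastin, and one of them, Loxl2, stood at 309, 249, 215, 596 and 501 CPM, with no overlap between the groups (1.08 ± 0.21 SE, limma adjusted p = 0.185).

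Of 6 small leucine-rich proteoglycans other than Dcn, 3 lay below in both KPPCN libraries and 1, Ogn, above. Lum, which encodes lumican, stood at 1936, 1967, 1554, 1056 and 1038 CPM (-0.79 ± 0.20 SE, limma adjusted p = 0.303). The KPPCN libraries were nearly equal. Of 10 genes of the IGF axis 4 lay below and 0 above, and of 22 SMAD response genes 7 lay below and 1 above. Id3, a target of BMP and TGF-beta signals, stood at 517, 609, 579, 299 and 348 CPM (-0.81 ± 0.20 SE, limma adjusted p = 0.289). Among 24 cholesterol synthesis and uptake genes 5 lay below and 0 above, with a median of -0.19. Among inflammatory genes, only Cxcl12 lay below in both KPPCN libraries (-1.42 ± 0.43 SE, limma adjusted p = 0.420), while KPPCN 1 was below all KPPC libraries for 12 of the 18 and KPPCN 2 above for 13, against 29.1% and 29.5% of all genes.

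**Figure D5:**
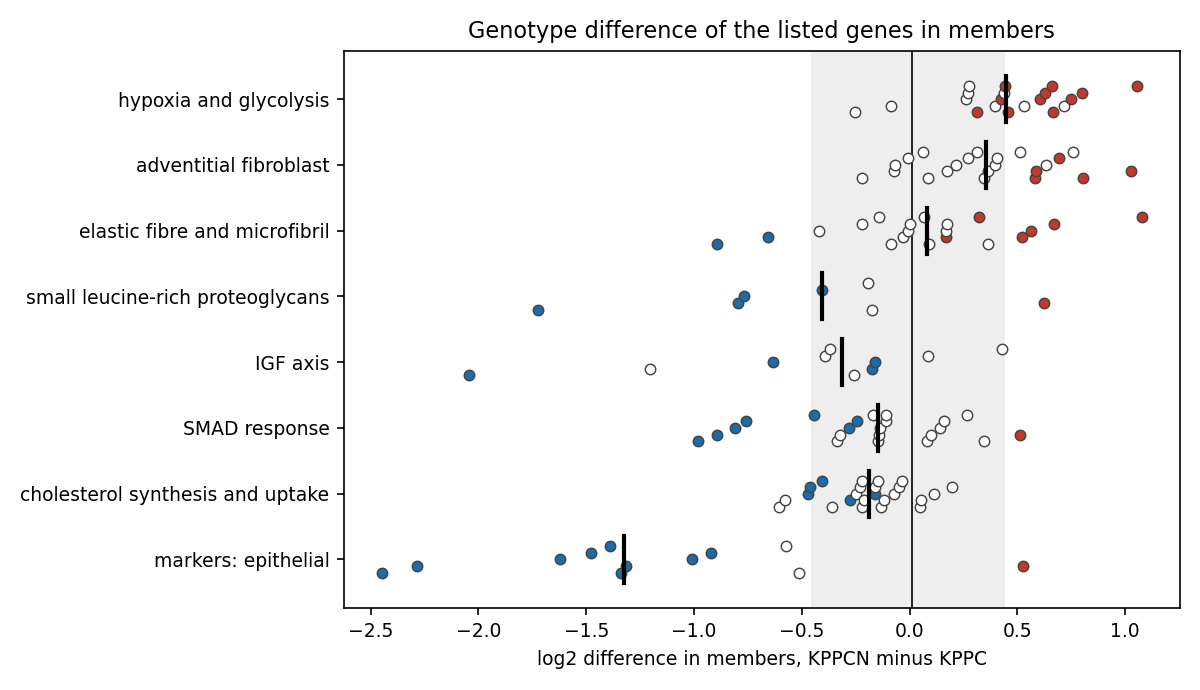
Log2 difference between KPPCN and KPPC in adventitial fibroblasts for the genes of 8 lists, 1 point per gene, with filled points for genes whose groups do not overlap (red above, blue below in KPPCN), black bars for list medians and a grey band from the 5th to the 95th percentile of all genes tested (-0.45 to 0.44). The median is 0.45 for hypoxia and glycolysis and -0.19 for cholesterol synthesis and uptake.

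The genotype difference was then compared with that in the other Dcn-positive cells of the same libraries. Of 10584 genes, 1 (0.00945%) differed between the populations (limma, interaction of genotype and population, Benjamini-Hochberg adjusted p under 0.05), and 333 did at an unadjusted p under 0.05. That gene was Wfdc1, which encodes a small secreted protein with a protease-inhibitor-type domain. Wfdc1 stood at 20.6, 28.6, 20.9, 12.2 and 2.12 CPM in the adventitial fibroblasts and at 13.6, 16.4, 12.9, 23.9 and 7.51 CPM in the others. In the adventitial fibroblasts both KPPCN libraries were below all KPPC libraries, and in the others the groups overlapped (difference of log2 differences -1.29 ± 0.15 SE, limma adjusted p = 0.0457). The adjusted p was under 0.05 in 5 of 13 alternatives and ranged from 0.00286 to 1.00, and without KPPC C3 the count of genes was 40.

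None of the 12 genes above differed in this test, with an adjusted p of 0.998 for each (limma). Their differences in the other Dcn-positive cells were all negative. H19 stood there at 322, 61.9, 98.8, 71.3 and 133 CPM, with overlapping groups and a log2 difference of -0.39, against -2.73 in the adventitial fibroblasts (difference between them -2.30 ± 0.68 SE). Masp1 stood at 43.5, 10.5, 25.2, 13.8 and 18.8 CPM, also with overlap and a log2 difference of -0.44. Epha4 (-1.36) and Cd59a (-1.10) were lower in KPPCN in the other Dcn-positive cells without overlap. Fgfr2 (-1.0) stood there at 38.8, 27.7, 33.3, 33.3 and 4.56 CPM, so that its groups overlapped and only KPPCN 2 was low. These 5 genes were therefore not shown to be particular to the adventitial fibroblasts.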

How the data were processed

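Deposited cell values x are natural logs that the authors made per cell: exp(x) - 1 summed to 10000 in each cell, which makes x the logarithm of 1 plus a gene's UMIs per 10000. Software named in the submitters' processing notes, without a role, is Cell Ranger 2.1.0, Seurat 3.0.2 and R 3.5.1, and the build is GRCm38. How cells and genes were filtered is not given in the sources used here. Dividing by the smallest step of a cell recovered the UMIs, and 100% of values came out whole within 0.01 UMI.

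UMIs were summed over adventitial fibroblasts per library (2172040 to 19025467). Levels are unscaled CPM. Differences came from limma 3.58.1 (R 4.3.3, Python 3.11.15) on log2 of CPM plus 5, with trimmed-mean scaling and precision weights. Genes tested had a mean CPM of at least that of 10 UMIs at the median total, and 15 UMIs in all. The test was run on simulated data first. No doublet caller was run. Shares were compared by an exact permutation test. Named genes were up to 4 non-overlapping genes per list at 20 CPM or more, filled to 2 by level, the 10 highest and 10 lowest genotype differences at 50 CPM or more, and the genes at the extremes of the other comparisons. Others are named as members of a list or call. The members and lists were chosen with earlier results of these data known. Alternatives left out single libraries or cells, or changed the thresholds, depth, pseudocount, filter, scaling or weights. Some items are not reported here.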

Additional observations from a re-analysis of the deposited data

Results flagged for a closer look

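Wfdc1 had a different genotype difference in adventitial fibroblasts than in the other Dcn-positive cells by the test of the difference itself (limma, -1.29 on the log2 scale). The gene is of low level, at 2.12 CPM in the adventitial fibroblasts of KPPCN 2.

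Some listed genes are in the KPPCN table but not among the KPPC genes used here, so that they entered no comparison between genotypes. Leaving aside markers of other cell types, 4 of them had more than 3 UMIs in the adventitial fibroblasts of both KPPCN libraries. C7, a component of the complement membrane attack complex, had 103 UMIs in KPPCN 1 and 11 in KPPCN 2, or 19.7 and 3.89 CPM against 1.29 and 1.34 CPM in the other Dcn-positive cells. Efhd1 had 29 UMIs in KPPCN 1 and 4 in KPPCN 2. Chrdl1, a secreted BMP antagonist, had 20 and 5 UMIs, and Opcml, a cell adhesion protein, 8 and 4. Each count is above 3, the limit that a count of 0 allows. Among markers of other cell types this held for C1qa, a macrophage complement gene, at 3.63 and 1.41 CPM.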

How the results depend on the processing

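The difference in the share of all cells (-2.93 points) became 0.774 without cells holding a Ptprc UMI. That setting could take cells from KPPCN only, as Ptprc is not among the KPPC genes used here. With 1 library left out at a time, the difference in the share of all cells ranged from -8.23 to 3.54. That among Dcn-positive cells that passed the exclusion terms (11.3 points) ranged from -1.06 to 24. The 13 genes past the threshold between genotypes, Epcam included, became 4 with thresholds of 20 per 10000, 1 in cells without UMIs of other types' markers, 0 with genes at 0 in a library included (chosen after seeing the data) and 1 to 116 with 1 library left out, in both directions where that was a KPPCN library. The 1 gene that differed between populations became 0 with a pseudocount of 1 CPM, without weights, in cells without UMIs of other types' markers and after thinning, and 0 to 40 with 1 library left out. A KPPCN library left alone was assumed to vary like the others. The counts of genes at least 2-fold apart from the other Dcn-positive cells stayed within 1.5 times, at 116 to 149 against 111. Named genes that changed sign were 3, all with an adjusted p above 0.05 (limma): Igf1r was 0.23 after thinning, and in cells without UMIs of other types' markers Klf10 was 0.015 and Srebf2 0.10. Of 1063 values of 77 named genes under alternatives, 964 kept their direction and side of the threshold and 87, from 14 genes, lost significance. Apart from those just given, the causes were not tested. No paired analysis was possible because the KPPC libraries carry codes and no replicate numbers. Depth limits KPPCN 1 most, where 139 adventitial fibroblasts had under 1000 UMIs.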

Other observations

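H19 is imprinted, and other imprinted genes were looked at after its value was seen. Mest, expressed from the paternal allele, stood at 36.6, 52.2, 36.0, 9.17 and 15.9 CPM in the adventitial fibroblasts in library order, with no overlap between genotypes (log2 difference -1.43 ± 0.22 SE, limma adjusted p = 0.0667). Plagl1, a zinc finger gene, stood at 73.7, 82.2, 47.7, 12 and 32.9 CPM, also without overlap (-1.52 ± 0.34 SE, limma adjusted p = 0.244). Peg3 (-0.77) and Impact (-0.39) were also lower in KPPCN without overlap, and Dlk1 (-0.48) was lower with overlap. Differences of the opposite sign without overlap were 0.49 for Meg3 and 1.00 for Mirg. With overlap they were 0.59 for Cdkn1c, 0.43 for Igf2r and 0.19 for Ndn. Sgce (-0.11) and Grb10 (-0.04) were nearer 0. None of these passed the test.

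Scara5, a ferritin receptor, and Ebf2, a transcription factor, both known in adventitial fibroblasts, were listed at 0 in KPPC D3 and entered no comparison of all 5 libraries. In KPPC C3, H2 and KPPCN 1 and 2, Scara5 stood at 67.6, 109.6, 65.4 and 73.9 CPM in the adventitial fibroblasts and at 7.79, 9.09, 7.09 and 7.78 CPM in the other Dcn-positive cells. Ebf2 stood at 63.2, 38.3, 48.0 and 44.9 CPM against 11.2, 10.5, 9.67 and 10.2 CPM.

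Cpxm2, a secreted carboxypeptidase-like protein, stood at 44.2, 97.0, 56.7, 14.7 and 5.66 CPM (-2.18 ± 0.32 SE) and missed the threshold among all genes. It was the 1 gene to pass among cells without UMIs of other types' markers.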
